A study of Mus musculus with 6 samples.

Results

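Cathepsins are proteases, most of which work in the lysosome, and 10 of them were followed here: Ctsa, Ctsb, Ctsc, Ctsd, Ctse, Ctsh, Ctsk, Ctsl, Ctss and Ctsz. They were taken by gene symbol from a table of 18211 genes, and all 10 were among the 13792 genes tested. The table came from RNA-sequencing of 6 samples labelled as oligodendrocyte precursor cells (OPCs), the glial progenitors of myelinating oligodendrocytes, isolated from the cerebral hemispheres of C57BL/6 mice at postnatal day 7 by immunopanning on PDGFRα. The 3 wildtype libraries came from mice without CreERT. The 3 DISC1-Δ3 libraries came from NG2-CreERTM: DISC1 exon3 fl/+ mice, in which tamoxifen-activated Cre under the NG2 promoter, active in OPCs and also in pericytes, removes exon 3 from a single copy of Disc1. Both genotypes received tamoxifen by gavage on 4 consecutive days, from day 4 to day 7. Since only the DISC1-Δ3 mice carried CreERT, effects of the transgene and of the exon deletion cannot be told apart. The labels do not say whether each library is a separate animal, so p-values measure the spread between these libraries only.

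Lysosomal cathepsins are made as inactive precursors, carried to the acidic lysosome largely by mannose 6-phosphate receptors, and activated there by removal of their propeptide. By active site they are aspartic (Ctsd, Ctse), serine (Ctsa) or cysteine proteases (the others), and cystatins restrain the cysteine group. In brain they are best known from microglia, the resident phagocytes, in which they digest engulfed material and prepare antigens for MHC class II, while neurons and glia also depend on Ctsd and Ctsb for routine turnover of protein.

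Promoter windows of 300 bases, from 250 bases before to 50 after a transcription start, were given by RefSeq (GRCm38.p6) for 7 members in 8 windows. They are shown for Ctsd and Ctsa because these hold the palindrome TCACGTGA, the element that MiT/TFE lysosomal regulators bind, and for Ctss because it holds GAGGAAGT, a form of the site of the myeloid factor PU.1. Each runs 5′ to 3′ on the gene's own strand, with capitals marking TCACGTGA, CACGTG or GAGGAAGT on either strand. CACGTG is the core of TCACGTGA, so each longer match also holds the shorter one.
Ctsd, chr7:142387778-142388077, minus strand: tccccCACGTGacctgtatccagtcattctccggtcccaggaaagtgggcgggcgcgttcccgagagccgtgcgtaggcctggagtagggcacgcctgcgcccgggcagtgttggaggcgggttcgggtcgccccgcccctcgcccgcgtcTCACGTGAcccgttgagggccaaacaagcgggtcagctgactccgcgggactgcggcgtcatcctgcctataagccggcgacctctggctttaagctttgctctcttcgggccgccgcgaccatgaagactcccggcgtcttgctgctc
Ctsa, chr2:164833523-164833822, plus strand: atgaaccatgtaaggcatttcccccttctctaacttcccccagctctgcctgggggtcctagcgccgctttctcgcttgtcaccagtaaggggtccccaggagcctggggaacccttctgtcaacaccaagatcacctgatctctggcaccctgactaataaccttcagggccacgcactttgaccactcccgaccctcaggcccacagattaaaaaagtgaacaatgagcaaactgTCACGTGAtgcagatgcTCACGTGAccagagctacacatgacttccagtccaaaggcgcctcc
Ctss, chr3:95526536-95526835, plus strand: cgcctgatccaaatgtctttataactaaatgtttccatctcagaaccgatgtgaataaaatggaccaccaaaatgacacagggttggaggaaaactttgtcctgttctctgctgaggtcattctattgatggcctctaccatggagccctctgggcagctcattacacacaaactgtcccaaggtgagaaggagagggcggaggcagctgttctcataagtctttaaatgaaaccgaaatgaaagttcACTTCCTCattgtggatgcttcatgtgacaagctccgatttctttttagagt

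In the Ctsd window, TCACGTGA began 99 bases before the start of transcription (position -99) and a separate CACGTG lay at -245. The Ctsa window held TCACGTGA at -13 and again at +5, while a second Ctsa window further upstream held none of the 3 motifs. Among all 32851 RefSeq promoters of this length, 0.974% held TCACGTGA, 7.15% held CACGTG and 3.20% held GAGGAAGT. Over the 14091 promoters of tested genes these shares were 1.75%, 9.54% and 3.04%. CACGTG was also found in the Ctsl window, at -236, and GAGGAAGT in those of Ctss, at -2, and Ctsc, at -151. These matches are of letters only.

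Libraries held 13716619 to 16417219 counted reads. Cathepsin levels are given as RPKM, read counts scaled for transcript length and sequencing depth, which can be compared between genes. Fold changes are on the log2 scale, DISC1-Δ3 over wildtype, from edgeR's quasi-likelihood fit to the rounded counts, with a standard error (SE), a 95% interval and a Benjamini-Hochberg adjusted p over all tested genes, called at 0.05. Disc1 itself was at 3.51, 3.34 and 3.81 RPKM in the wildtype libraries and at 2.86, 2.44 and 2.85 in those of DISC1-Δ3, a log2 fold change of -0.45 (SE 0.088, adjusted p = 0.000528, edgeR). DISC1-Δ3 replicate 3 stood apart from the other 2 DISC1-Δ3 libraries on the second principal component (-14.2 against 7.30 and 6.79), so fold changes are also given without it. The OPC markers were present, but the microglia markers were far higher in sum. In wildtype, 22 homeostatic microglia markers summed to 19200 to 19420 RPKM and 11 OPC markers to 568.7 to 590.5. Pdgfra, the panning antigen, was at 17.2 to 18.1 RPKM in wildtype, and Csf1r, the growth factor receptor of microglia, at 1851 to 1889. Single genes of the lists overlapped: in wildtype the OPC marker Olig1 was above the microglia markers P2ry13, Aif1, Gpr34, Sall1 and Ptprc. Olig1 and these microglia markers were named after their values were seen. None of the 22 homeostatic microglia markers or 11 OPC markers was at 0 in all libraries.

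Cathepsin RNA was abundant and lower in DISC1-Δ3. Of the 10 members, 9 fell and none rose at an adjusted p under 0.05 in edgeR, where 19.5% of all tested genes fell and 20.4% rose. In 8 members every DISC1-Δ3 library lay below every wildtype library in RPKM, a pattern shown by 16.1% of tested genes. The median log2 fold change of the 10 was -0.39, against 0.0075 over all tested genes. Without replicate 3 of DISC1-Δ3 that median was -0.36 and 9 members fell, in a fit where 24.0% of all tested genes fell. With library totals in place of TMM factors 8 members fell, beside 13.3% of all tested genes. Of all calls in that fit 69.2% were higher in DISC1-Δ3, against 51.1% with TMM.

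**Figure D1:**
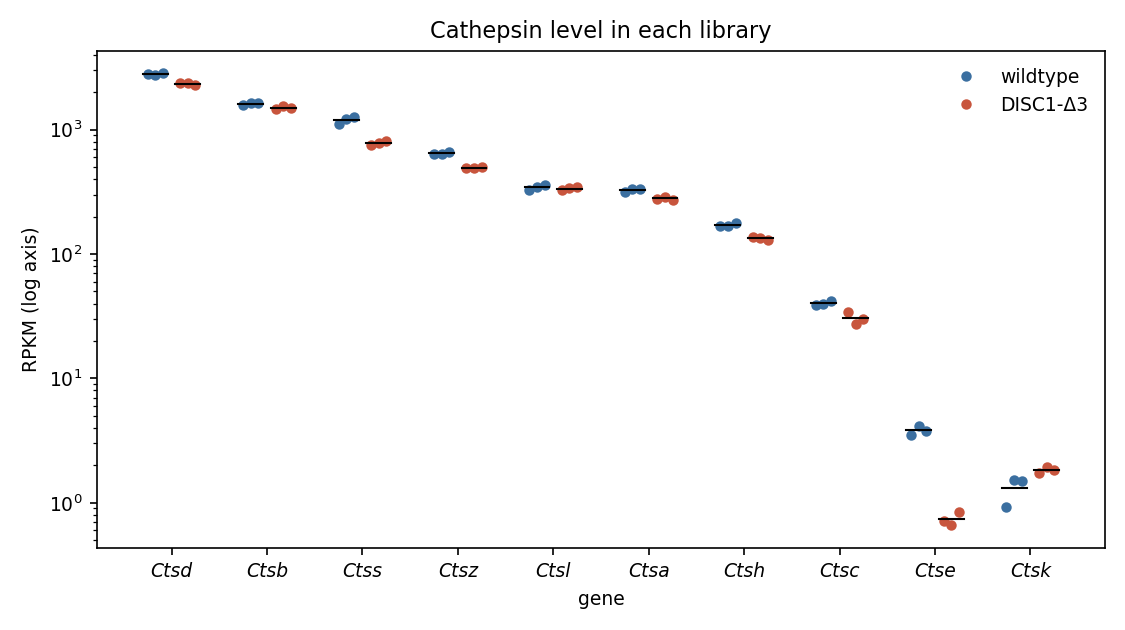
Level of each cathepsin in each library, in RPKM on a log axis, with genes ordered by wildtype mean; dots are libraries (3 wildtype in blue, 3 DISC1-Δ3 in red) and black lines are group means. Levels span 2799 RPKM for Ctsd to 1.31 for Ctsk in wildtype, and the Ctse and Ctsk groups change places in DISC1-Δ3.

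Among the aspartic members, Ctsd was the most abundant of the 10 and Ctse had the largest fall. Ctsd, the main lysosomal endopeptidase and the gene lost in a congenital form of neuronal ceroid lipofuscinosis, lies at chr7:142375910-142387827 (GRCm38.p6). It was at 2794, 2768 and 2834 RPKM in wildtype and 2383, 2364 and 2270 in DISC1-Δ3. The 2 ranges did not overlap, and its level ranked 12 of 18211 genes in wildtype and 14 in DISC1-Δ3. Its log2 fold change was -0.34 (SE 0.043, 95% interval -0.43 to -0.25, adjusted p = 4.84e-06, edgeR), and -0.31 without replicate 3.

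Ctse (chr1:131638314-131675507) encodes an endosomal aspartic protease of immune cells, gastric epithelium and erythroid cells. It was at 3.52, 4.15 and 3.81 RPKM in wildtype, from 95, 135 and 123 reads. In DISC1-Δ3 it was at 0.71, 0.66 and 0.85 RPKM, from 20, 21 and 27 reads. All DISC1-Δ3 libraries were thus far below all wildtype libraries, at a level of few reads. The log2 fold change was -2.45 (SE 0.19, 95% interval -2.84 to -2.06, adjusted p = 9.41e-09, edgeR), -2.56 without replicate 3 and -1.47 in limma on log2(RPKM + 1). There the pseudocount is larger than the DISC1-Δ3 level of 0.66 to 0.85 RPKM. Of tested genes 0.00725%, a single gene, had a lower fitted log2 fold change. All 7 tested markers of erythroid cells, which express Ctse, rose, beside 20.4% of all tested genes. Their summed level was 9344 to 9567 RPKM in wildtype and 16650 to 18150 in DISC1-Δ3. Slc4a1 among them, named after its values were seen, had reached 0.5 RPKM only in DISC1-Δ3. The part of this list in the Ctse result was not tested.

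The cysteine endopeptidases Ctss, Ctsl, Ctsb and Ctsk differed among themselves. Ctss (chr3:95526786-95556405) is the protease of antigen-presenting cells that trims the invariant chain from MHC class II and stays active at neutral pH. It was at 1115, 1212 and 1269 RPKM in wildtype and 756, 787 and 817 in DISC1-Δ3. The groups did not overlap, and the log2 fold change was -0.69 (SE 0.049, 95% interval -0.79 to -0.58, adjusted p = 4.07e-09, edgeR), or -0.71 without replicate 3. A lower log2 fold change was found for 3.44% of tested genes.

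Ctsk (chr3:95499210-95509387), the collagen-degrading cathepsin of osteoclasts and fibroblasts, lies 17.4 kb from Ctss. It was at 0.92, 1.52 and 1.49 RPKM in wildtype and 1.74, 1.94 and 1.82 in DISC1-Δ3, from 18 to 45 reads. Every DISC1-Δ3 library was above every wildtype library, but the difference did not pass the threshold: the log2 fold change was 0.40 (SE 0.24, 95% interval -0.10 to 0.90, adjusted p = 0.190, edgeR), and 0.42 without replicate 3. At this depth neither no change nor a rise of up to 0.90 was outside the interval.

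Ctsb (chr14:63122462-63145923), an endopeptidase that also cleaves dipeptides from carboxyl ends, was second in level. It was at 1576, 1624 and 1631 RPKM in wildtype and 1458, 1554 and 1484 in DISC1-Δ3, close but without overlap. It fell by a small amount, -0.18 on the log2 scale (SE 0.040, 95% interval -0.26 to -0.09, adjusted p = 0.00170, edgeR), and -0.17 without replicate 3. In limma on log2(RPKM + 1) its log2 fold change was -0.10 and the call was lost (adjusted p = 0.0514).

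Ctsl (chr13:64361890-64370772), a broad endopeptidase that also processes other lysosomal proteases, had overlapping groups: 329, 344 and 356 RPKM in wildtype and 327, 337 and 343 in DISC1-Δ3. Its log2 fold change of -0.11 (SE 0.043, 95% interval -0.20 to -0.02) was barely past the threshold (adjusted p = 0.0453, edgeR). It was -0.03 and not called with library totals (adjusted p = 0.584), and the call was also lost in 4 of the 6 fits that left out a library: without wildtype replicate 2 (adjusted p = 0.149), wildtype replicate 3 (0.212), DISC1-Δ3 replicate 1 (0.106) or DISC1-Δ3 replicate 2 (0.0615). The 95% intervals of Ctsb and Ctsl lay wholly above that of Ctss, nearer to 0.

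The 3 cysteine exopeptidases, which remove amino acids from chain ends, fell by similar amounts. Ctsz (chr2:174427494-174439039), a carboxypeptidase of monocytes and microglia, was at 636, 639 and 656 RPKM in wildtype and 495, 493 and 498 in DISC1-Δ3. The SD of its DISC1-Δ3 libraries was 0.505% of their mean, the smallest spread of any member. Its log2 fold change was -0.46 (SE 0.039, 95% interval -0.54 to -0.38, adjusted p = 4.60e-08, edgeR), with or without replicate 3.

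Ctsh (chr9:90054267-90076095), an aminopeptidase, was at 167, 169 and 176 RPKM in wildtype and 136, 134 and 130 in DISC1-Δ3. The groups were well apart, with a log2 fold change of -0.44 (SE 0.045, 95% interval -0.53 to -0.34, adjusted p = 4.02e-07, edgeR), or -0.41 without replicate 3. Ctsc (chr7:88278024-88315861), the dipeptidyl peptidase that activates granule serine proteases of leukocytes, was at 39.0, 39.9 and 42.1 RPKM in wildtype and 34.5, 27.5 and 30.0 in DISC1-Δ3. Its log2 fold change was -0.45 (SE 0.047, 95% interval -0.55 to -0.35, adjusted p = 5.47e-07, edgeR), or -0.50 without replicate 3. The transcript length implied by its counts and RPKM varied 1.26-fold between libraries, from 4.51 to 5.70 kb, against at most 1.05-fold in the other members. Its RPKM therefore depended on a length that differed by library, whereas the fold change, from counts, did not use it.

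Ctsa (chr2:164832872-164841032), a serine carboxypeptidase that also protects beta-galactosidase and neuraminidase in a lysosomal complex, was at 318, 335 and 332 RPKM in wildtype. In DISC1-Δ3 it was at 277, 289 and 274 RPKM, below every wildtype library. The log2 fold change was -0.31 (SE 0.043, 95% interval -0.40 to -0.22, adjusted p = 1.47e-05, edgeR), or -0.29 without replicate 3.

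**Figure D2:**
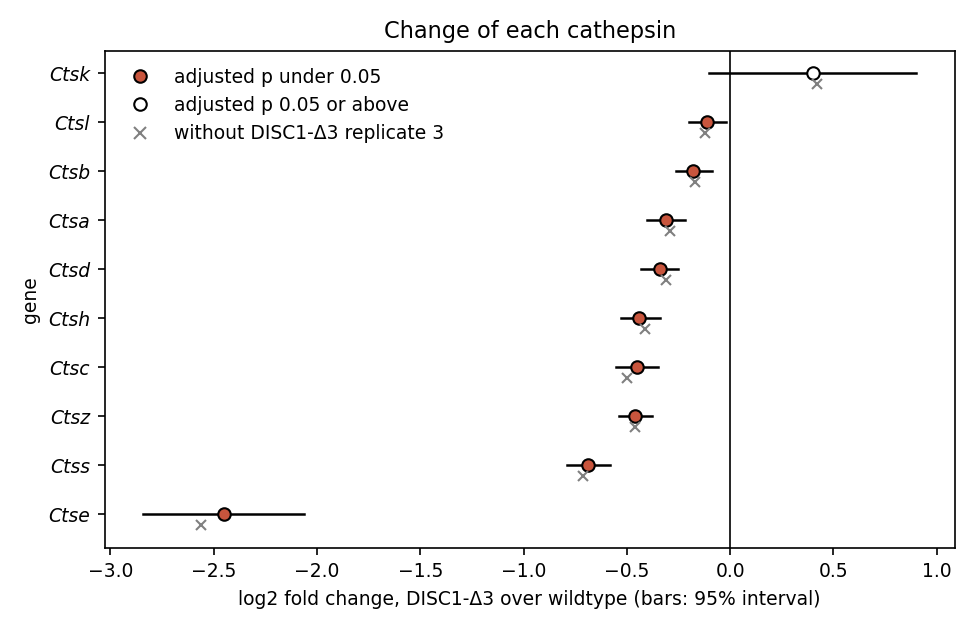
Log2 fold change of each cathepsin, DISC1-Δ3 over wildtype (x axis), from the edgeR fit to 3 libraries a genotype; bars are 95% intervals, filled circles passed an adjusted p under 0.05, and crosses are the values without DISC1-Δ3 replicate 3. Ctse at -2.45 and Ctss at -0.69 lie lowest, and Ctsk at 0.40 is the only one whose interval spans 0.

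The order of levels was nearly the same in both genotypes. In each it ran Ctsd, Ctsb, Ctss, Ctsz, Ctsl, Ctsa, Ctsh and Ctsc from highest to lowest, followed by Ctse and Ctsk in wildtype and by Ctsk and Ctse in DISC1-Δ3. Of neighbours in this order, only Ctsl and Ctsa in wildtype overlapped between libraries, with means of 343 ± 13.3 and 328 ± 8.96 RPKM (SD, n = 3). In DISC1-Δ3 they were apart, at 336 ± 7.94 and 279.8 ± 7.81 RPKM (SD, n = 3). Ctsd gave 39.2% of the members' summed RPKM in wildtype and 39.6% in DISC1-Δ3. The share of Ctsb was 22.6% and 25.4%, and that of Ctss 16.8% and 13.3%.

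By active site, the 7 cysteine members together were at 4008 ± 134.9 RPKM in wildtype and 3282 ± 65.3 in DISC1-Δ3 (SD, n = 3), a ratio of 0.819. The ratio was 0.835 for the 2 aspartic members and 0.853 for Ctsa. These ratios are of RPKM, without TMM factors, and in the edgeR fit with TMM Ctsa was at a ratio of 0.806. All 10 took 1.23%, 1.26% and 1.28% of the counted reads in wildtype and 1.06%, 1.07% and 1.04% in DISC1-Δ3, without overlap. Cysteine members made up 56.1% of the cathepsin RPKM in wildtype and 55.6% in DISC1-Δ3.

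Markers of microglia moved with the cathepsins. Of 22 homeostatic microglia markers 21 fell and none rose, beside 19.5% and 20.4% of all tested genes. Their median log2 fold change was -0.49. Their summed level was 19200 to 19420 RPKM in wildtype and 13390 to 13970 in DISC1-Δ3, a ratio of 0.714, while that of the 10 cathepsins was 0.827. C1qa, a complement component of microglia, fell by 0.67 on the log2 scale, Csf1r by 0.58, the fractalkine receptor Cx3cr1 by 0.39 and the purinergic receptor P2ry12 by 0.23. In bulk RNA, fewer cells of a type and less RNA per cell cannot be told apart, and the part of the microglia markers in the cathepsin result was not tested.

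Other marker lists moved in both directions, beside 19.5% of all tested genes lower and 20.4% higher. Of 9 border-associated macrophage markers 4 fell and 1 rose, with sums of 216.8 to 226.6 RPKM in wildtype and 190.2 to 198 in DISC1-Δ3. Their median log2 fold change was 0.14: the mannose receptor Mrc1 (-0.32), F13a1, Cbr2 and Stab1 fell, Folr2 rose (0.33), and Cd163, Lyve1, Pf4 and Ms4a7, at 0.14 to 0.44, did not pass the test. All of these but Mrc1 were named after their values were seen. Of 6 neutrophil markers tested 3 fell and 1 rose. Of 11 OPC markers 8 rose and 1 fell, with sums of 568.7 to 590.5 and 741.8 to 770.3 RPKM, and Pdgfra had a log2 fold change of 0.48. Of 9 mature oligodendrocyte markers tested 6 fell and none rose. Of 9 astrocyte markers 6 fell and 1 rose. Among 10 neuronal markers 9 rose, among 8 of pericytes and smooth muscle all 8, among 8 endothelial markers 4 and among 4 of mast cells and basophils tested 1, with none lower in these 4 lists. The part of each of these lists in the cathepsin result was not tested.

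Each cathepsin was also divided by the summed microglia marker RPKM of its library, as a description without a test. The complement genes C1qa, C1qb and C1qc were the highest in that sum, at wildtype means of 3312, 3099.5 and 3269 of 19290 RPKM. Their log2 fold changes were -0.67, -0.69 and -0.60, beyond the list median of -0.49, so the ratios depend on which markers are summed. C1qb and C1qc were named after their values were seen. Ctsd was then at 14.5, 14.4 and 14.6% of the marker sum in wildtype and 17.1, 16.9 and 17.0% in DISC1-Δ3, so that the higher group was now DISC1-Δ3. Ctsb stood at 8.18, 8.46 and 8.39% of it in wildtype and at 10.5, 11.1 and 11.1% in DISC1-Δ3. Ctss was at 5.79, 6.31 and 6.54% in wildtype, against 5.41, 5.63 and 6.10% in DISC1-Δ3. The Ctss groups overlapped on this scale, and the log2 ratio of their means was -0.12. Ctsc also overlapped, with a log2 ratio of 0.09. Its RPKM used a length that varied 1.26-fold between libraries, so this overlap was not seen at equal length. Ctsa, Ctsh, Ctsl and Ctsz were higher in every DISC1-Δ3 library, with log2 ratios of 0.26, 0.13, 0.46 and 0.11. Ctse was lower in every DISC1-Δ3 library, with a log2 ratio of -1.88, and for Ctsk, higher in every one, it was 0.97.

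**Figure D3:**
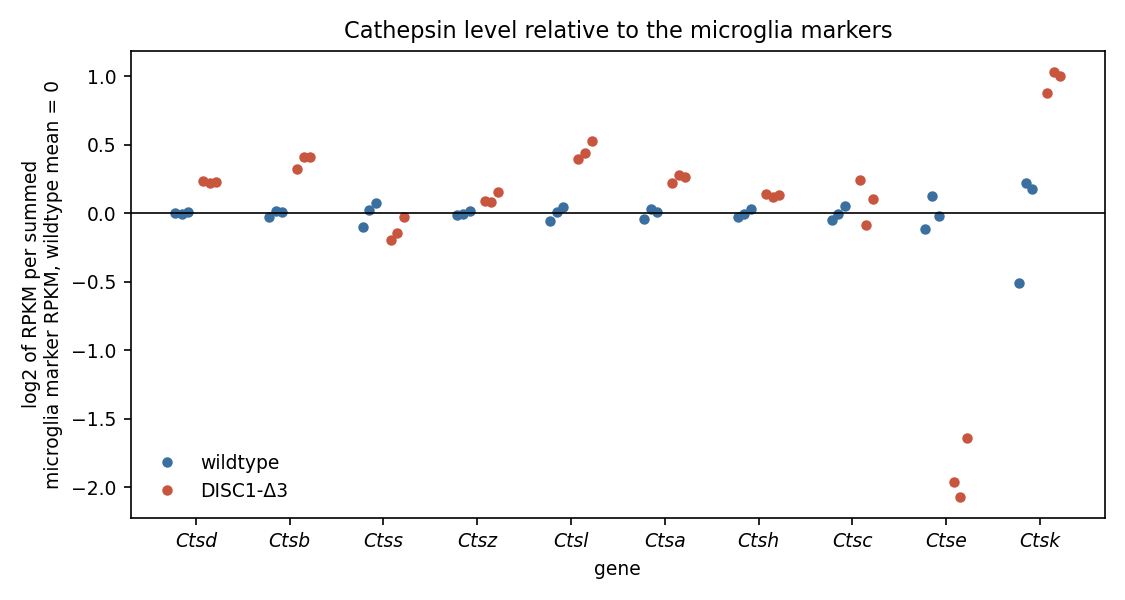
Cathepsin RPKM divided by the summed RPKM of 22 microglia markers in the same library, as log2 relative to the wildtype mean of each gene (y axis); dots are libraries, 3 wildtype in blue and 3 DISC1-Δ3 in red. On this scale Ctse alone is lower in all DISC1-Δ3 libraries, Ctss and Ctsc overlap, and the other 7 are higher. C1qa, C1qb and C1qc are the highest of the markers summed, and the RPKM of Ctsc used a length that differed by library.

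Outside the 10 members, Ctsf, a cysteine cathepsin that also cleaves the invariant chain, was at 215, 209 and 215 RPKM in wildtype and 181, 176 and 167 in DISC1-Δ3. It fell with a log2 fold change of -0.36 (SE 0.045, adjusted p = 3.93e-06, edgeR). Ctso (-0.08, adjusted p = 0.376) and Ctsw (-0.24, adjusted p = 0.547), a protease of cytotoxic lymphocytes, did not pass the test, and the neutrophil protease Ctsg was too low to be tested.

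Among inhibitors of cathepsins 6 of 12 tested genes fell and none rose, beside 19.5% and 20.4% of all tested genes. Their median log2 fold change was -0.40. Cst3, the secreted cystatin C, was at 9944, 10557 and 10714 RPKM in wildtype and 9570, 9726 and 9360 in DISC1-Δ3. Its levels did not overlap, and it fell by 0.20 on the log2 scale (adjusted p = 0.00206, edgeR). Cstb, the cytosolic cystatin B, was at a log2 fold change of 0.00 (adjusted p = 0.974) and Serpinb6a at 0.07 (adjusted p = 0.569). The largest falls in this list were in weakly expressed genes, the stefin Stfa2 (-0.62, adjusted p = 0.0181, edgeR) and the serpin Serpina3g (-0.67, adjusted p = 0.0337, edgeR). Without DISC1-Δ3 replicate 3, Serpina3g was at -0.52 and no longer called (adjusted p = 0.112, edgeR). This count of 6 was 1 without wildtype replicate 2, 3 without wildtype replicate 3 or DISC1-Δ3 replicate 1, 2 with library totals or summed RPKM and 1 in DESeq2. Of all tested genes, 15.6% were lower without wildtype replicate 2, 13.3% with library totals, 12.7% with summed RPKM and 17.2% in DESeq2.

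Of 10 genes that sort or mature lysosomal proteases 7 fell and 1 rose, beside 19.5% and 20.4% of all tested genes. Lgmn, the asparaginyl endopeptidase that processes cathepsin precursors, was at 2078, 2078 and 2109 RPKM in wildtype and 1645, 1711 and 1639 in DISC1-Δ3. Its log2 fold change of -0.41 (SE 0.041, adjusted p = 3.83e-07, edgeR) was close to the median of the cathepsins. Psap, the saposin precursor, fell by 0.37 and Lrp1, an endocytic receptor, by 0.33. Igf2r, the large mannose 6-phosphate receptor, was the exception: it was at 1.88, 1.81 and 1.58 RPKM in wildtype and 3.74, 3.81 and 3.99 in DISC1-Δ3, a log2 fold change of 1.05 (SE 0.085, adjusted p = 2.00e-08, edgeR). This count of 7 was 4 with library totals, summed RPKM or either limma fit, and 2 genes were then higher in place of 1. In those fits 12.7% to 13.3% of all tested genes were lower and 28.7% to 29.9% higher. Without wildtype replicate 2 the count was 4, beside 15.6% of all tested genes lower.

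Other lysosomal hydrolases fell widely, 30 of 40 with none higher, beside 19.5% of all tested genes lower and 20.4% higher. Their median log2 fold change was -0.28. The alpha-mannosidase Man2b1 was at 391, 392 and 394 RPKM in wildtype and 313, 317 and 300.2 in DISC1-Δ3, without overlap, a log2 fold change of -0.41 (adjusted p = 3.50e-07, edgeR). The nuclease Pld4 fell by 0.54 on the log2 scale and the sulfatase Arsb by 0.59. With library totals or summed RPKM 24 genes of this list were lower and 1 higher, and in both limma fits 25 were lower and none higher. Of all tested genes, 12.7% to 13.3% were then lower and 28.7% to 29.9% higher.

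Genes of the lysosomal membrane and of acidification were mixed, with 10 of 28 lower, 4 higher and a median log2 fold change of -0.07. Over all tested genes 19.5% were lower and 20.4% higher. Laptm5, a membrane protein of leukocyte lysosomes that is also on the microglia list, fell by 0.42, the glycoprotein Lamp1 by 0.17 and the proton pump subunit Tcirg1 by 0.45. The pump subunit Atp6v0c was at a log2 fold change of 0.00 (adjusted p = 0.955). Atp6v0d2, the pump subunit of osteoclasts and macrophages, was at 0.06, 0.18 and 0.05 RPKM in wildtype (2, 7 and 3 reads) and at 0.59, 0.95 and 0.98 in DISC1-Δ3 (20, 37 and 38 reads). It was among the 4 higher genes, but it reached the 0.5 RPKM needed for testing only in DISC1-Δ3, so its fold change is not given. With library totals or summed RPKM 7 genes of this list were lower and 7 higher, and in both limma fits 6 were lower and 7 higher. In those fits 12.7% to 13.3% of all tested genes were lower and 28.7% to 29.9% higher.

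Of the 4 MiT/TFE factors, which drive lysosomal genes, 2 fell and none rose, beside 19.5% and 20.4% of all tested genes. Tfe3 was at 57.4, 52.3 and 52.2 RPKM in wildtype and 48.6, 48.3 and 44.2 in DISC1-Δ3, a log2 fold change of -0.26 (adjusted p = 0.00076, edgeR). Mitf fell by 0.57 on the log2 scale (adjusted p = 0.00369, edgeR) from levels of 1.66 to 2.10 RPKM. Tfeb (-0.10, adjusted p = 0.326) and Tfec (0.18, adjusted p = 0.508) did not pass the test.

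All 9 tested genes of MHC class II and its loading fell, beside 19.5% of all tested genes. Their median log2 fold change was -0.69, while the class II activator Ciita was too low to be tested. Cd74, the invariant chain that Ctss trims, was at 163, 161 and 168 RPKM in wildtype and 134, 134 and 122 in DISC1-Δ3, a log2 fold change of -0.41 (SE 0.051, adjusted p = 3.94e-06, edgeR). H2-DMa, which exchanges peptides on class II, fell by 0.64. The class II chains H2-Ab1, H2-Aa and H2-Eb1 had log2 fold changes of -0.44, -0.85 and -1.45, all past the threshold.

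**Figure D4:**
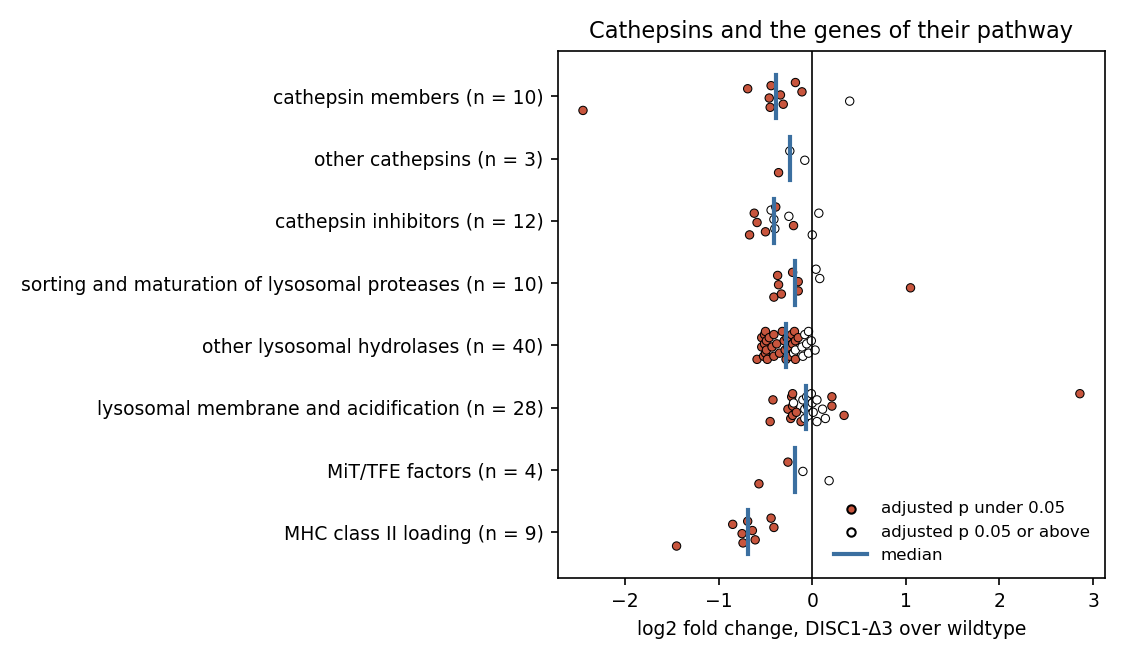
Log2 fold change of every tested gene (x axis, DISC1-Δ3 over wildtype) in the cathepsins and 7 lists of related genes (rows); each circle is a gene, filled where its adjusted p was under 0.05, and blue lines are list medians, with vertical scatter for legibility only. Medians run from -0.69 for MHC class II loading to -0.07 for lysosomal membrane and acidification.

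The genes most alike in pattern were sought among 8849 tested genes with a mean of at least 5 RPKM, by Pearson's r of log2(RPKM + 1) over the 6 libraries, which include the difference between genotypes. For Ctsd these were Cotl1 (r = 0.9997) and Lfng (r = 0.999), for Ctsb Gnai2 (r = 0.9997) and Cmtm3 (r = 0.9905), and for Ctss Sult1a1 (r = 0.9997) and Rpl34-ps1 (r = 0.9969). Ctse was most like Siglech (r = 0.9988) and Mgat1 (r = 0.9987), and Ctsz most like Osm and Cfb (r = 0.9992 for both). Ctsa was nearest to Lag3 (r = 0.9996) and Ifi30 (r = 0.9969), Ctsh to Tbxas1 (r = 0.9992) and Tnfrsf13b (r = 0.9986), and Ctsc to Rpl12 (r = 0.9973) and Acp2 (r = 0.9924). Ctsk was nearest to Mrpl57 (r = 0.9932) and Mrps7 (r = 0.9911), and Ctsl to Rpl26 (r = 0.9752) and Rpl7 (r = 0.9729). Such values were common: 120 genes exceeded r = 0.99 with Ctsz and 93 with Ctsd, but only 2 with Ctsb and none with Ctsl.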

How the data were processed

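Freshly isolated cells were sequenced as single-end 50-base reads on a BGISEQ-500. The authors deposited, for each gene and library, an expected count, an estimate that need not be whole (90.2% of counts above 0 were whole within 1e-06), and an RPKM, in which the count is scaled for depth and length. The submitters' processing notes name Bowtie2 2.2.5 and mm10, and the study names DESeq2. The counting tool and annotation are not given in the sources used here. The 4 columns of group averages were not used.

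Expected counts were rounded and tested with edgeR 4.0.16 (R 4.3.3; quasi-likelihood, TMM, two-sided, genotype only) for the 13792 genes that reached 0.5 RPKM in 3 or more libraries. SE is the size of the log2 fold change divided by the square root of F. Alternatives were other filters, scalings, DESeq2 1.42.0, limma 3.58.1, robust fitting, a replicate block, each library left out and an added threshold of 1 on the size of the log2 fold change. The edgeR and DESeq2 fits were tested on simulated data in which few genes changed, none of them with few reads. That setting differs from these data, where 19.5% of tested genes fell and 20.4% rose. Reads carry no molecular identifiers, so the precision that depth gives (1 read is 0.0609 to 0.0729 RPM) covers counting error only. Ctsa and Ctsb had non-whole counts in 6 libraries and Ctsl in 4.

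Members and lists were chosen with earlier results of these data known. Named are all members, the 3 highest and 2 most changed genes of each list of related genes, the 2 genes most alike to each member, and P2ry12, Cx3cr1, Csf1r, C1qa, Mrc1, Pdgfra and Disc1. A gene that this rule names is left out of the text. Any other gene was named after its values were seen. Coordinates and promoters are from RefSeq, GRCm38.p6, the same assembly as mm10. RefSeq promoters were matched for 7 members, and Ctsb, Ctse and Ctsh were not among them.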

Additional observations from a re-analysis of the deposited data

How the results depend on the processing

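Of the 17 alternatives, the 16 that refitted the data kept the direction of each member's fold change. The other, the fold requirement, reused the values of the edgeR fit with TMM. Where a log2 change of 1 in size was also required, 1 member, Ctse, was called lower in place of 9. The members' median of -0.39 was -0.31 with library totals, -0.30 with scaling by summed RPKM, and -0.31 in limma on log2(RPKM + 1) or log2(RPKM + 0.1). Leaving out each library in turn gave 8 to 9 members lower, 0 higher and medians of -0.41 to -0.36. Over all tested genes these fits called 15.6% to 24.0% lower and 15.6% to 21.2% higher. Apart from the fold requirement, calls were lost for Ctsl, also with median-of-ratios scaling (adjusted p = 0.0505), summed RPKM (0.626) and both limma fits (0.581 and 0.580), and for Ctsb in limma on log2(RPKM + 1) (0.0514). No call was gained, and Ctsk had adjusted p-values of 0.0557 to 0.511. In all genes, higher calls made up 70.1% of calls with summed RPKM and 69.2% in both limma fits, against 51.1% in the edgeR fit with TMM. The labels number replicates 1 to 3 in both genotypes, but libraries with the same number had correlated deviations of only 0.117, 0.0305 and -0.034, so the number was taken as a name. With a replicate block 9 members were lower, 0 higher and the median was -0.39, beside 19.25% of all tested genes lower and 20.1% higher. The fold requirement left 0 of the 30 other hydrolases and 1 of the 9 MHC class II genes as lower calls. Depth limits Ctse and Ctsk, with 421 and 213 reads over all libraries.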
